A study of Mus musculus with 2 samples.

Results

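The genes described here are 38 genes for lysosomal enzymes and lysosomal membrane proteins, taken by symbol from a given list, all of whose symbols were found among the 32285 genes of the count matrices. They comprise 7 cysteine cathepsins, 4 other proteases, 9 glycosidases, 2 sulfatases, 3 lipid hydrolases, 3 soluble cofactors and lipid-binding proteins, and 10 membrane proteins. Their levels were followed across cell classes of the mouse hippocampus and compared between PS19 mice and PS19 mice without *Zbp1* (PZKO). The list was chosen with earlier results of these data known, so its counts beside all genes are given as a description. *Zbp1* encodes Z-DNA binding protein 1, a sensor of Z-form nucleic acids.

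Single-nucleus RNA sequencing (snRNA-seq) was made on hippocampi of males aged 9 months, with 1 library of PS19 mice carrying wild-type *Zbp1* and 1 library of PZKO mice. Both groups carry the PS19 transgene, which expresses human tau with the P301S mutation under the mouse prion protein promoter, and no group without the transgene was analysed here. The labels call each library pooled, while the protocol states that individual animals were processed separately, and no animal can be traced in the counts. Since each genotype is a single library, no test between them could be made, and every difference below is a difference between 2 libraries.

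Lysosomes are acidic organelles in which hydrolases degrade proteins, glycans and lipids that arrive by endocytosis, phagocytosis and autophagy. Soluble hydrolases reach them mostly through mannose 6-phosphate tags, while membrane proteins such as LAMP1 and LAMP2 line and protect the limiting membrane. In the brain, microglia are the main phagocytes, and several lysosomal genes, *Cd68* and *Ctsd* among them, are widely used as markers of reactive microglia. Many lysosomal genes carry a CLEAR element, an E-box-like sequence bound by the transcription factor TFEB and its relatives.

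The core letters of this element were searched in RefSeq promoters of the GRCm38.p6 assembly, which run from 250 bases before to 50 bases after each gene's start. Promoters were listed for 34 of the 38 genes and not for *Ctsb*, *Ctsh*, *Asah1* and *Npc1*. The letters CACGTG, which read the same on both strands, were present for 12 of the 34 genes (35.3%) and for 8.09% of all 27025 genes in the table. The longer form GTCACGTG, or CACGTGAC on the other strand, which contains CACGTG, was present for 9 genes (26.5%) against 2.55% of all genes. These 9 were *Ctsa*, *Ctsd*, *Lamp1*, *Gla*, *Glb1*, *Arsa*, *Mcoln1*, *Lgmn* and *Naglu*. The symmetric form TCACGTGA was present for 4 genes (11.8%), *Ctsa*, *Ctsd*, *Gla* and *Mcoln1*, against 1.12% of all genes. Stretches before the start of 4 genes are shown, 5′ to 3′ on the strand of the gene and with GTCACGTG or CACGTGAC in capitals, because *Ctsd* and *Lamp1* were among the 5 genes with the lowest ratios of PZKO over PS19 in microglia while *Lgmn* and *Glb1* had ratios near 1.
*Ctsd*, chr7:142388039-142388077, minus strand: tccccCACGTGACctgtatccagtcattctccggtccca
*Lamp1*, chr8:13159107-13159160, plus strand: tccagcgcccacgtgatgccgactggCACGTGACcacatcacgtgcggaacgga
*Lgmn*, chr12:102439110-102439169, minus strand: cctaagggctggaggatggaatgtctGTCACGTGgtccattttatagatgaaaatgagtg
*Glb1*, chr9:114401002-114401061, plus strand: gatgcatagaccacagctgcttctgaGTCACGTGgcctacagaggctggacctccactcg
The capitals begin 245 bases before the RefSeq start of *Ctsd*, 28 before that of *Lamp1*, 51 before that of *Lgmn* and 50 before that of *Glb1*. In the GENCODE M21 annotation, from which gene spans are given, *Ctsd* and *Lgmn* start further upstream than in RefSeq. The stretch of *Ctsd* ends directly before the annotated gene, so its capitals lie closer to that start. The stretch of *Lgmn* lies within the annotated gene, outside exons. A match of letters is a description and does not show that a factor binds there.

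The PS19 library held 11469 nuclei with 116488513 unique molecular identifiers (UMIs, each marking 1 captured RNA molecule), and the PZKO library held 10920 nuclei with 171167884 UMIs. After filters on nuclei and the removal of likely doublets, 9590 nuclei of PS19 (median 5849.5 UMIs) and 9307 of PZKO (median 9015 UMIs) were kept, and 47 barcodes occurred in both libraries. The nuclei formed 34 clusters, which were named from marker genes after the lysosomal genes had been left out of the clustering, and 6 clusters stayed unnamed. The targeted gene *Zbp1* was read at 48 UMIs in PS19 microglia and at 20 UMIs in PZKO microglia. As CPM, the sum of a gene's UMIs over the nuclei of a class scaled to all UMIs of that class, these levels were 14.7 and 5.94, so reads of the gene were also present in the library labelled PZKO. *Ttr*, the transthyretin gene that choroid plexus cells express strongly, was at 787 CPM in PS19 microglia and at 96.2 CPM in PZKO microglia. The summed level of the 8 choroid plexus markers, of which *Ttr* is 1, was lower in PZKO than in PS19 in all 5 classes compared below, at 822 CPM against 110 CPM in microglia, where 1 of the 8 was at 0 in PS19. The part of these transcripts in the differences below was not tested. All intervals given are exact 95% intervals that cover counting error only.

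Across 11 classes with at least 50 nuclei in each library, most lysosomal genes had their highest level in microglia. In PS19, 31 of the 38 genes did, and in PZKO 29 did. The share of all genes that were highest in microglia was not computed. These levels are shares of a class's UMIs and not amounts per nucleus. Median depth in PS19 was 3320.5 UMIs per microglial nucleus and 18675.5 per excitatory neuron. In both libraries the microglial interval overlapped that of the next class for *Ctsf* and *Mcoln1*. Such an overlap was also present for *Scarb2* in PS19, and for *Lamp1*, *Arsb* and *Neu1* in PZKO. The class with the highest level was the same in both libraries for 36 genes. The exceptions were *Cd63*, a tetraspanin of lysosomes and exosomes, which was highest in PS19 microglia (243 CPM) and in PZKO astrocytes (132 CPM), and *Galc*, which encodes the galactosylceramidase that breaks down myelin lipids. *Galc* was at 80.7 CPM in microglia and 80.2 CPM in ependymal cells in PS19, and at 59.1 CPM and 86.1 CPM in PZKO. For both genes the intervals of the highest and the next class overlapped in each library.

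**Figure D1:**
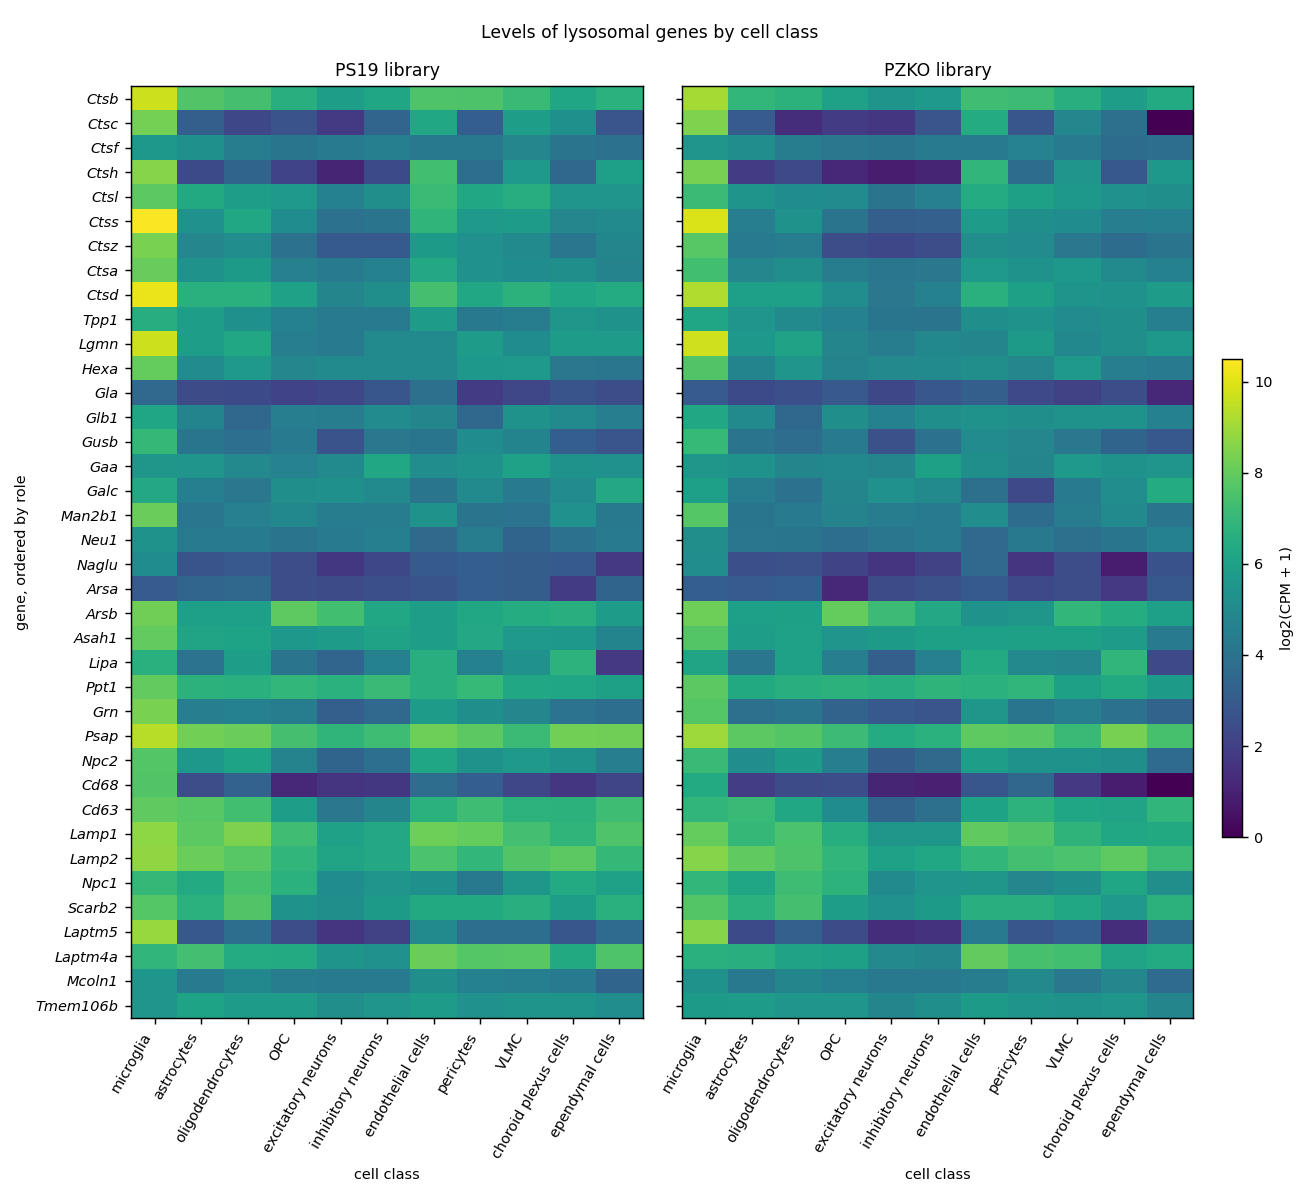
Heat map of the levels of 38 lysosomal genes (rows, ordered by role) in 11 cell classes (columns) of the PS19 and the PZKO library, as log2(CPM + 1). The microglial column is the brightest for most rows in both libraries, with 31 genes highest there in PS19 and 29 in PZKO.

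The membrane proteins *Cd68* and *Laptm5* and the proteases *Ctss* and *Lgmn* had the largest excess in microglia over the next class in PS19. The gene *Cd68*, which encodes a heavily glycosylated lysosomal protein of phagocytes, was at 197 CPM in PS19 microglia and at 12.5 CPM in endothelial cells, the next class. *Laptm5*, a lysosomal membrane protein of blood and immune cells, was at 467 CPM in PS19 microglia and at 30.6 CPM in endothelial cells. *Ctss*, which encodes cathepsin S of antigen-presenting cells, was at 1383 CPM in PS19 microglia and at 117 CPM in endothelial cells. Among these 11 classes, microglia thus exceeded the next class 15.8-fold for *Cd68*, 15.3-fold for *Laptm5* and 11.8-fold for *Ctss*. *Lgmn*, which encodes the asparaginyl endopeptidase legumain, was at 837 CPM in PS19 microglia and at 74.8 CPM in oligodendrocytes, an 11.2-fold excess that was 13.1-fold in PZKO. Macrophages, with 29 PS19 and 24 PZKO nuclei, were too few to be among the 11 classes. In PS19 macrophages *Cd68* was at 117 CPM (9 UMIs, interval 53.5 to 222), *Laptm5* at 286 CPM, *Ctss* at 585 CPM and *Lgmn* at 675 CPM. *Ctsc* was at 559 CPM in them (interval 404 to 752), above the 312 CPM of microglia.

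Another group of genes was spread over the classes or was highest outside microglia. *Npc1*, the cholesterol exporter of the lysosomal membrane, was highest in oligodendrocytes in both libraries, at 173 CPM in PS19 and 148 CPM in PZKO, against 128 CPM and 124 CPM in microglia, with intervals that did not overlap. *Laptm4a* was highest in endothelial cells (282 CPM in PS19 and 248 CPM in PZKO), with an interval that overlapped that of the next class in PS19. *Gaa*, which encodes the acid glucosidase that degrades glycogen, was highest in inhibitory neurons (77.7 CPM and 60.7 CPM), while its interval overlapped that of vascular leptomeningeal cells, the next class. *Lipa*, the acid lipase that hydrolyses cholesteryl esters and triglycerides, was highest in choroid plexus cells (108 CPM and 119 CPM). Its interval overlapped that of the next class in both libraries, which in PS19 was microglia at 101.5 CPM. *Tmem106b*, a transmembrane protein of late endosomes and lysosomes, was highest in astrocytes (66.7 CPM and 55.5 CPM), with an interval that overlapped that of the next class in PZKO. *Gla* was highest in endothelial cells and *Arsa* in oligodendrocytes, both at 13.6 CPM or less and with intervals that overlapped those of the next class.

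The aspartyl protease gene *Ctsd* served as the pattern to which the other genes were compared, by the correlation of log2(CPM + 1) averaged over both libraries. The genes most like it over the 11 classes were *Ctss* (Pearson r = 0.983), *Ctsz* (0.973), *Laptm5* (0.973), *Ctsa* (0.967) and *Grn* (0.965). *Gaa* (0.12), *Galc* (0.213) and *Arsb* (0.262) were the least like it. The classes come from the same 2 libraries, so these correlations are given as a description.

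In microglia, 10 of the 37 lysosomal genes with at least 50 UMIs were at least 1.5-fold lower in PZKO, a share of 27.0%, against 5.64% of all 10668 genes tested. No lysosomal gene was at least 1.5-fold higher, against 3.41% of all genes. The median log2 ratio of PZKO over PS19 was −0.29 for the lysosomal genes and −0.02 for all genes, and 31 of the 37 ratios were below 0. The 10 genes were *Cd68*, *Cd63*, *Lamp1*, *Ctsa*, *Ctsb*, *Ctsd*, *Ctsl*, *Ctsz*, *Grn* and *Gla*. Of these, *Gla*, the galactosidase lacking in Fabry disease, rested on 36 and 24 UMIs and its interval reached above 0 (−1.44 to 0.16). Microglia were a single cluster of 946 PS19 nuclei and 757 PZKO nuclei. When only nuclei with 1000 UMIs or more, 500 genes or more and no more than 1% mitochondrial UMIs were used (the stricter filter), 4 of 36 genes were at least 1.5-fold lower, against 5.96% of all genes, and the log2 ratio was −0.83 for *Cd68*, −0.62 for *Ctsd* and −0.52 for *Lamp1*.

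*Cd68* gave the lowest ratio in microglia. It was read at 645 UMIs in PS19 (197 CPM, interval 182 to 213) and at 288 UMIs in PZKO (85.5 CPM, 75.9 to 96.0), which is −1.21 as a log2 ratio (−1.41 to −1.003). *Cd63* was at 243 CPM and 118 CPM, a log2 ratio of −1.04 (−1.21 to −0.86). For both genes, the intervals of the libraries did not overlap. *Lamp1*, one of the most abundant proteins of the lysosomal membrane, was at 424 CPM in PS19 and 256 CPM in PZKO (−0.73, −0.85 to −0.61). Its relative *Lamp2*, which also acts in chaperone-mediated autophagy, was at 431 CPM and 381 CPM (−0.18, −0.29 to −0.07). The membrane proteins thus ranged from *Cd68* to *Tmem106b* (44.3 CPM and 51.4 CPM; 0.21, −0.11 to 0.54), with a median of −0.21.

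Among the proteases, *Ctsd* was read at 3784 UMIs in PS19 microglia (1157 CPM) and at 2030 UMIs in those of PZKO (603 CPM), so the log2 ratio was −0.94 (−1.02 to −0.86). *Ctsa*, the serine carboxypeptidase that also protects β-galactosidase and neuraminidase, was at 263 CPM and 158 CPM (−0.73, −0.89 to −0.58). The cysteine cathepsins had a median of −0.55, and 3 of 7 passed 1.5-fold. These were *Ctsl* (228 CPM and 140.4 CPM), *Ctsb* (836 CPM and 544 CPM) and *Ctsz* (333 CPM and 217 CPM), with log2 ratios of −0.70, −0.62 and −0.62. *Ctss* was close to that limit, at 1383 CPM and 947 CPM (−0.55, −0.61 to −0.48). *Ctsc*, which encodes dipeptidyl peptidase I, the activator of granule serine proteases, went the other way, at 312 CPM in PS19 and 355 CPM in PZKO (0.19, 0.07 to 0.31). *Lgmn*, which processes several cathepsins, was at 837 CPM and 850 CPM (0.02, −0.05 to 0.10). Genes of the proteases therefore did not share 1 direction in microglia.

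Of the 9 glycosidases of microglia, 1 (*Gla*) was at least 1.5-fold lower, and their median log2 ratio was −0.17. The values included the β-galactosidase gene *Glb1* at 73.4 CPM and 77.8 CPM (0.08, −0.17 to 0.34) and the β-glucuronidase gene *Gusb* at 128 CPM and 129.7 CPM (0.02, −0.17 to 0.22). *Hexa*, which encodes the α subunit of β-hexosaminidase, was at 258 CPM and 199.8 CPM (−0.37, −0.52 to −0.22). The arylsulfatase B gene *Arsb* was at 299.1 CPM and 289.8 CPM (−0.05, −0.18 to 0.08), while *Arsa*, with 23 and 26 UMIs, was under the minimum of 50. The 3 cofactors had a median of −0.54. *Grn*, the progranulin gene, was at 333 CPM and 214 CPM (−0.64, −0.78 to −0.50), and *Psap*, the precursor of the saposins that activate sphingolipid hydrolases, at 669 CPM and 498 CPM (−0.42, −0.52 to −0.33). The cholesterol-binding protein gene *Npc2* was at 203 CPM and 139.5 CPM (−0.54, −0.72 to −0.37), whereas its membrane partner *Npc1* was at 128 CPM and 124 CPM (−0.05, −0.25 to 0.15).

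The other genes lay between these in microglia. Of the proteases, *Ctsh*, an aminopeptidase, had a log2 ratio of −0.27, *Tpp1*, the tripeptidyl peptidase lacking in a form of neuronal ceroid lipofuscinosis, −0.37, and *Ctsf*, which encodes cathepsin F, −0.12. Among the glycosidases, *Galc* was at −0.45 and the α-mannosidase gene *Man2b1* at −0.38, whereas the neuraminidase gene *Neu1* (−0.17), *Gaa* (−0.01) and *Naglu* (0.03), which acts on heparan sulfate, had intervals that held 0. The lipid hydrolases ranged from *Lipa* (−0.55) over *Asah1*, the acid ceramidase gene (−0.29), to *Ppt1*, a gene of the thioesterase that removes palmitate from proteins (−0.11). Of the membrane proteins, *Laptm5* was at −0.27, *Laptm4a* at −0.25, *Mcoln1*, the calcium channel gene of the lysosomal membrane, at −0.16 and *Scarb2*, the receptor that carries β-glucocerebrosidase to lysosomes, at −0.03. The intervals of *Ctsf*, *Ppt1*, *Mcoln1* and *Scarb2* also held 0.

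**Figure D2:**
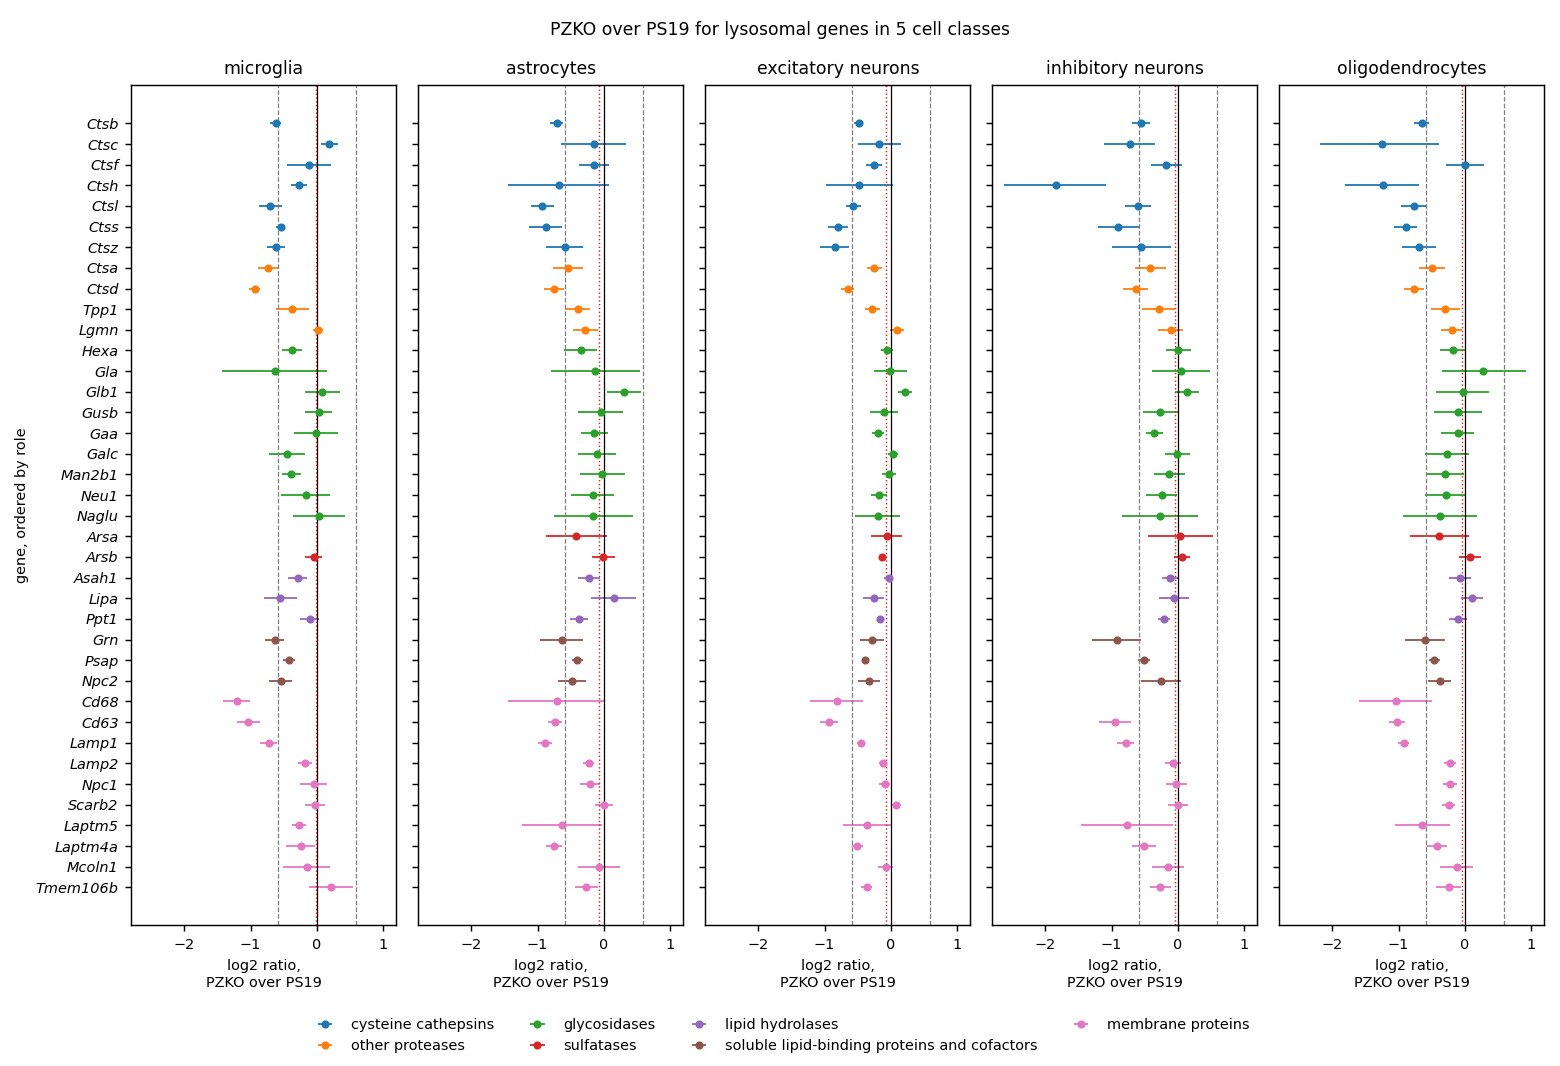
Log2 ratio of PZKO over PS19 for 38 lysosomal genes, ordered and coloured by role, in 5 cell classes. Points are ratios of summed UMIs, bars exact 95% intervals for counting error only, dashed lines 1.5-fold, dotted lines the median of all genes tested in that class, and genes under 50 UMIs in a class are left out. Most points lie left of 0 in each class and none lies at or beyond 1.5-fold on the right.

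PZKO microglia were deeper than PS19 microglia, with a median of 4171 against 3320.5 UMIs per nucleus. The share of nuclei with at least 1 UMI was therefore compared after each nucleus had been thinned to 2000 UMIs, which kept 824 PS19 and 697 PZKO microglia and left out 122 and 60. *Cd68* was then detected in 27.7% of PS19 microglia (interval 24.6% to 30.9%) and 14.2% of PZKO microglia (11.7% to 17.0%), and without thinning in 38.7% and 28.5%. Fewer PZKO microglia thus had a UMI of *Cd68* although they were deeper. In excitatory neurons, which should lack this gene, the thinned shares were 0.451% and 0.280% (unthinned 4.02% and 3.25%), at median depths of 18675.5 and 28135.5 UMIs. *Ctsd* was detected in 77.7% and 64.0% of thinned microglia (unthinned 85.4% and 82.6%) and *Lamp1* in 51.7% and 38.3% (unthinned 68.6% and 61.6%). *Lgmn* was detected in 75.8% and 77.8% (unthinned 83.6% and 88.4%), with intervals that overlapped. Of the 38 lysosomal genes, 34 were detected in a lower thinned share of PZKO than of PS19 microglia, with a median difference of −3.63 percentage points. Of all 10668 genes tested in microglia, 51.2% were, with a median difference of −0.04.

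**Figure D3:**
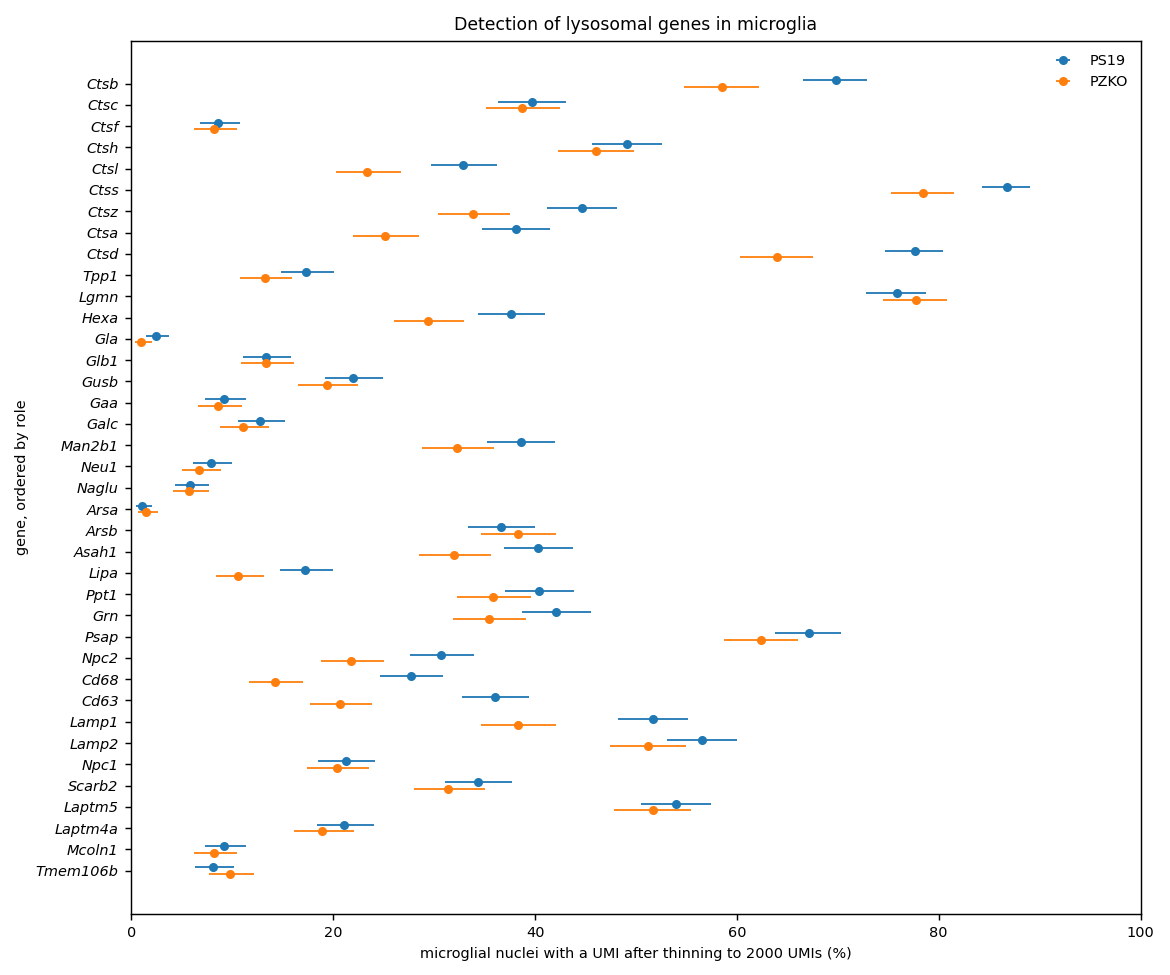
Share of microglial nuclei with at least 1 UMI of each lysosomal gene (percent, horizontal axis) after thinning to 2000 UMIs per nucleus, in the PS19 library (blue) and the PZKO library (orange). Bars are exact 95% binomial intervals, and *Cd68*, *Cd63*, *Ctsd* and *Lamp1* show PZKO below PS19 with intervals apart.

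In astrocytes, 12 of 38 lysosomal genes were at least 1.5-fold lower in PZKO, against 7.79% of all 13498 genes tested, and 0 were at least 1.5-fold higher, against 1.82%. Their median log2 ratio was −0.32, that of all genes −0.07. The 12 genes were *Ctsb*, *Ctsd*, *Ctsh*, *Ctsl*, *Ctss*, *Ctsz*, *Cd68*, *Cd63*, *Lamp1*, *Grn*, *Laptm5* and *Laptm4a*. Of these, *Cd68* and *Ctsh*, both highest in microglia, were detected in 1.02% and 0.927% of thinned PS19 astrocytes. In thinned PZKO astrocytes the shares were 0.688% and 0.430%. The part of microglial transcripts in this count was not tested. *Lamp1* was at 234 CPM in PS19 and 126 CPM in PZKO (−0.89, −0.99 to −0.79), and *Ctsl*, the gene of the endopeptidase cathepsin L, at 81.5 CPM and 42.8 CPM (−0.93, −1.10 to −0.76). *Cd63* was at 220.5 CPM and 132 CPM (−0.74, −0.84 to −0.64). The membrane protein gene *Laptm4a* gave 165 CPM and 98.2 CPM (−0.75, −0.87 to −0.63). *Ctss* gave 39.1 CPM and 21.3 CPM (−0.88, −1.13 to −0.63), beside microglial markers that summed to 70.4 CPM and 68.8 CPM in these astrocytes. For each of these 5 genes the PZKO interval lay wholly below the PS19 interval. At the other end, *Glb1* was at 25.7 CPM and 31.7 CPM (0.30, 0.05 to 0.56), *Lipa* at 14.9 CPM and 16.5 CPM (0.15, −0.19 to 0.49) and *Scarb2* at 103 CPM in both (0.00, −0.13 to 0.13). Astrocytes comprised cluster 5, with 47.5% of PS19 and 56.8% of PZKO astrocytes, and cluster 6, led by *Aqp4* and *Gfap*, with 52.5% and 43.2%. The lysosomal median was −0.32 in cluster 5 and −0.28 in cluster 6. Under the stricter filter on nuclei, 6 of 37 genes of the class were at least 1.5-fold lower, against 7.13% of all genes. The same filter gave 4 of 38 genes in excitatory neurons (all genes 5.67%), 7 of 35 in inhibitory neurons (5.33%) and 9 of 37 in oligodendrocytes (6.35%).

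In oligodendrocytes, 12 of 38 genes were at least 1.5-fold lower in PZKO, against 6.57% of all 12327 genes tested, and 0 were at least 1.5-fold higher, against 1.98%. The medians were −0.30 for the lysosomal genes and −0.05 for all genes. Cysteine cathepsins made up 6 of the 12 and had a median of −0.77, while none of the 9 glycosidases passed 1.5-fold (median −0.18). The 6 were *Ctsb*, *Ctsc*, *Ctsh*, *Ctsl*, *Ctss* and *Ctsz*, and the rest *Ctsd*, *Cd68*, *Cd63*, *Lamp1*, *Grn* and *Laptm5*. *Cd68*, highest in microglia, was detected in 1.93% of thinned PS19 and 0.957% of thinned PZKO oligodendrocytes. The part of microglial transcripts in this count was not tested. *Cd63* was at 158 CPM in PS19 and 77.6 CPM in PZKO (−1.02, −1.15 to −0.90), and *Lamp1* at 348 CPM and 183 CPM (−0.92, −1.004 to −0.84). *Ctsd* was at 101 CPM and 59.6 CPM (−0.76, −0.91 to −0.62). This direction reversed when the profile of nuclei with few UMIs was subtracted, as given further on. The aminopeptidase cathepsin gene *Ctsh* rested on 88 and 42 UMIs (9.48 CPM and 4.01 CPM; −1.24, −1.81 to −0.69). *Gla* (0.28, −0.35 to 0.92), *Lipa* (0.11, −0.06 to 0.28) and *Arsb* (0.08, −0.09 to 0.24) had the highest ratios, each with an interval that held 0.

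*Ctss* was at 74.5 CPM in PS19 oligodendrocytes and 40.1 CPM in PZKO oligodendrocytes (−0.89, −1.07 to −0.72), and it was detected in 13.8% and 7.95% of nuclei thinned to 2000 UMIs (unthinned 20.9% and 15.4%). In excitatory neurons these thinned shares were 3.42% and 1.71%. The 9 microglial marker genes summed to 58.8 CPM and 51.0 CPM in the same nuclei and to 5536 CPM and 5854 CPM in microglia, and none was at 0 in oligodendrocytes. In the nuclei with few UMIs described below, *Ctss* was at 588 CPM in PS19 and 290 CPM in PZKO, above both oligodendrocyte levels. The profile of those nuclei, when subtracted as free RNA, was scaled to 13.5% of the UMIs of PS19 and 11.4% of PZKO oligodendrocytes. At this scale it left no *Ctss* UMIs in PS19 oligodendrocytes and some in those of PZKO, so *Ctss* had no finite ratio after it. The part of the microglial markers or of such free RNA in the *Ctss* value was not tested. The makeup of the class differed between the libraries, since cluster 2 held 41.5% of PS19 and 22.1% of PZKO oligodendrocytes and cluster 0 held 27.9% and 47.1%. Cluster 30, led by interferon-induced genes such as *Rsad2* and *Ifit3*, held 15 PS19 and 25 PZKO nuclei. With each of the 4 clusters given the same weight, this small one included, the log2 ratio of *Ctss* was −1.35. Within clusters, the lysosomal median was −0.21 in cluster 0, −0.33 in cluster 2 and −0.40 in cluster 4, so each of these 3 lay below 0.

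In excitatory neurons, 5 of 38 genes were at least 1.5-fold lower in PZKO, against 6.4% of all 17473 genes tested, and 0 were at least 1.5-fold higher, against 3.47%. The medians were −0.23 for the lysosomal genes and −0.08 for all genes. The 5 genes were *Cd63* (17.4 CPM in PS19 and 9.14 CPM in PZKO), *Ctsz* (6.86 CPM and 3.81 CPM), *Ctss* (14.2 CPM and 8.15 CPM), *Cd68* (113 and 102 UMIs) and *Ctsd* (26.5 CPM and 16.8 CPM). None of these 5 kept PS19 UMIs when the profile of nuclei with few UMIs was subtracted, as given further on. *Ctsl* came next and was at 23.2 CPM and 15.7 CPM (−0.57, −0.68 to −0.46). *Cd68* and *Ctss* are genes of phagocytes, and the 9 microglial markers summed to 26.4 CPM in PS19 and 19.2 CPM in PZKO excitatory neurons, whose part in these values was not tested. The highest ratios were those of *Glb1* (20.5 CPM and 23.8 CPM; 0.21, 0.11 to 0.32), *Lgmn* (0.09, −0.01 to 0.20) and *Scarb2* (0.08, −0.002 to 0.16). *Ctsb*, with 3318 and 3768 UMIs, had a log2 ratio of −0.48 (−0.55 to −0.41). The intervals of *Asah1*, with 2992 and 4641 UMIs (−0.03, −0.10 to 0.03), and of *Hexa*, with 1765 and 2686 UMIs (−0.06, −0.15 to 0.03), held 0.

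Dentate granule neurons (cluster 3) made up 37.9% of PS19 and 17.9% of PZKO excitatory neurons. The lysosomal median was −0.29 in these neurons, −0.21 in CA1 neurons and −0.11 in CA3 neurons, and −0.23 in the excitatory clusters to which no region was assigned. The medians of all genes were −0.09 in dentate granule, −0.06 in CA1 and −0.03 in CA3 neurons. In each of these 3 regions the lysosomal median was therefore below that of all genes.

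In inhibitory neurons, 9 of 37 genes were at least 1.5-fold lower in PZKO, against 6.37% of all 14341 genes tested, and 0 were at least 1.5-fold higher, against 2.66%. The medians were −0.26 for the lysosomal genes and −0.04 for all genes. *Cd63* was at 26.1 CPM in PS19 and 13.5 CPM in PZKO (−0.94, −1.19 to −0.70), and *Lamp1* at 80.5 CPM and 46.6 CPM (−0.79, −0.92 to −0.66). *Ctss* was at 15.3 CPM and 8.21 CPM (−0.90, −1.21 to −0.58), beside microglial markers that summed to 49.8 CPM and 29.9 CPM. *Grn*, the progranulin gene, was at 11.1 CPM and 5.83 CPM (−0.92, −1.30 to −0.55), and *Ctsh* had the lowest ratio on only 47 and 23 UMIs (−1.84, −2.62 to −1.09), which was −0.63 without the removal of doublets. *Glb1* (0.14, −0.05 to 0.32), *Arsb* (0.06, −0.05 to 0.18) and *Gla* (0.04, −0.39 to 0.49) were highest, each with an interval that held 0.

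Across the 5 classes, 36 genes had at least 50 UMIs in every class, and 23 of these (63.9%) had a ratio below 0 in each, against 26.6% of the 9429 genes of the matrices with as many UMIs in every class. *Ctsd* and *Cd63* were the 2 genes at least 1.5-fold lower in all 5 (5.56%, against 0.583%), and 22 of the 36 were not 1.5-fold lower in any (61.1%, against 85.9%). In PS19 nuclei with few UMIs, described below, *Ctsd* was at 674 CPM and *Cd63* at 461 CPM. Excitatory neurons of PS19 had 26.5 CPM and 17.4 CPM. How far free RNA shared by the classes enters these values was not tested, so the 5 classes cannot be counted as separate readings. None of the 36 was at least 1.5-fold higher in any of the 5 classes, against 4.83% of the 9429. *Glb1* was above 0 in 4 of the 5 classes, with a log2 ratio of −0.03 in oligodendrocytes. *Ctsc* ran from 0.19 in microglia to −1.25 in oligodendrocytes, where it rested on 36 and 17 UMIs.

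An unnamed cluster held nuclei with few UMIs (334 PS19 nuclei and 243 PZKO nuclei, median 813 UMIs). In it, 35 of the 38 genes were at a higher level than in excitatory neurons in each library. Only 9 in PS19 and 11 in PZKO were at a higher level than in microglia. The share of all genes was not computed for these counts. In that cluster, the median log2 ratio of the 22 genes with enough UMIs was −0.32 (all genes −0.01), and 9 of the 22 were at least 1.5-fold lower, against 11.4% of all genes. *Ctsd* was at 674 CPM and 334 CPM there, so lower levels in PZKO were also read in nuclei of no named class. When the profile of this cluster was subtracted from each class as free RNA, 11 of 37 genes were at least 1.5-fold lower in microglia (all genes 8.91%), 8 of 34 in astrocytes (12.5%) and 7 of 35 in oligodendrocytes (10.8%). In neurons these counts were 4 of 28 in inhibitory neurons (7.96%) and 2 of 30 in excitatory neurons (7.99%), so the share in excitatory neurons was near that of all genes. Without subtraction 37 and 38 genes were compared there, so these counts do not cover the same genes. The profile was scaled to 5.32% of PS19 and 4.53% of PZKO UMIs in excitatory neurons. In its PS19 form, *Cd63* was at 461 CPM, *Ctsz* at 167 CPM, *Ctss* at 588 CPM, *Cd68* at 47.8 CPM and *Ctsd* at 674 CPM. At this scale the subtraction left no PS19 UMIs of these genes in excitatory neurons, where they were those called lower. The genes still called lower there after it were therefore others. After the same subtraction, the log2 ratio of *Ctsd* in oligodendrocytes turned from −0.76 to 1.06. The profile was there scaled to 13.5% of PS19 and 11.4% of PZKO UMIs. *Ctsd* was lower in oligodendrocytes than in the profile, at 101 CPM in PS19 and 59.6 CPM in PZKO. The value of 1.06 thus rests on the UMIs that the subtraction left. When the profile of all nuclei was subtracted instead, 12 of 37 genes were at least 1.5-fold lower in microglia (8.02%), 10 of 38 in astrocytes (10.6%), 9 of 37 in oligodendrocytes (8.05%), 5 of 35 in inhibitory neurons (7.27%) and 3 of 37 in excitatory neurons (7.02%).

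Other genes of the same organelle were set beside the 38. For 28 other lysosomal hydrolases and transporters the medians ran from −0.19 in inhibitory neurons to −0.08 in oligodendrocytes, above those of the 38 in each of the 5 classes. At least 1.5-fold lower were 2 of 26 in microglia (7.69%, all genes 5.64%) and 5 of 27 in astrocytes (18.5%, all genes 7.79%). The shares were 3.57% in excitatory neurons (all genes 6.4%), 7.41% in inhibitory neurons (6.37%) and 7.14% in oligodendrocytes (6.57%). Their lowest values in microglia were those of *Plbd2* (29.1 CPM and 14.5 CPM; −0.998, −1.53 to −0.49) and *Gm2a*, the GM2 ganglioside activator gene (48.0 CPM and 28.5 CPM; −0.75, −1.13 to −0.38). The 18 subunits of the V-ATPase, the proton pump that acidifies the lysosome, had medians from −0.30 in inhibitory neurons to −0.17 in microglia, where 0 of 18 passed 1.5-fold. These medians lay below those of the 38 in both neuronal classes. At least 1.5-fold lower were 3 of 18 in inhibitory neurons (16.7%, all genes 6.37%) and 2 of 18 in oligodendrocytes (11.1%, all genes 6.57%). In astrocytes and in excitatory neurons it was 1 of 18 (5.56%, all genes 7.79% and 6.4%). *Atp6v0c*, the proteolipid subunit of its membrane ring, had the lowest ratio of them in microglia (292 CPM and 210 CPM; −0.48, −0.62 to −0.34). Its log2 ratio was lower still in inhibitory (−0.96) and excitatory neurons (−0.72). Regulators of lysosomal genes had medians from −0.08 in astrocytes to 0.00 in oligodendrocytes. *Tfeb* itself was at 78.0 CPM and 97.1 CPM in microglia (0.32, 0.08 to 0.56) and at 94.6 CPM and 118 CPM in oligodendrocytes (0.32, 0.19 to 0.45), above 0 in both. Regulators past 1.5-fold upward were *Tfeb* in inhibitory neurons (54 and 169 UMIs; 0.84, 0.39 to 1.31) and *Tfe3* in oligodendrocytes (0.88, 0.41 to 1.35). Past 1.5-fold downward were *Lamtor2* in microglia (−0.90, −1.39 to −0.42) and *Rraga* in astrocytes (−0.90, −1.27 to −0.53). The 10 sorting genes had medians from −0.17 in astrocytes to −0.04 in excitatory neurons. All 3 cathepsin inhibitor genes were at least 1.5-fold lower in microglia (all genes 5.64%), *Cst3*, the cystatin C gene, among them at 1463 CPM and 834 CPM (−0.81, −0.88 to −0.74). *Cst3* was not lower in microglia alone, with log2 ratios from −1.13 in inhibitory neurons to −0.95 in oligodendrocytes in the other classes. It was also a leading gene of the nuclei with few UMIs. *Cstb* was at −0.11 in inhibitory neurons (−0.56 to 0.34).

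Lists unrelated to the lysosome also had medians below 0. The 82 ribosomal protein genes had medians of −0.46 in microglia, −0.53 in astrocytes and −0.46 in excitatory neurons. Their medians were −0.55 in inhibitory neurons and −0.47 in oligodendrocytes. Of those with enough UMIs, 24.4% were at least 1.5-fold lower in microglia, 35.4% in astrocytes and 23.1% in oligodendrocytes. The lysosomal shares in these classes were 27.0%, 31.6% and 31.6%. In excitatory neurons 12.7% of ribosomal and 13.2% of lysosomal genes were, and in inhibitory neurons 32.1% and 24.3%. The 13 mitochondrially encoded genes had medians between −1.19 in inhibitory neurons and −0.58 in microglia. Nuclear long noncoding RNAs had medians above 0 in each class, up to 0.45 in oligodendrocytes, but 2 or 3 genes of this list were below 0 in each class. *Malat1* was below 0 in all 5 classes, from −0.36 in inhibitory neurons to −0.11 in microglia. The median share of mitochondrial UMIs per nucleus was 0.51% in PS19 and 0.346% in PZKO. The part of these differences in the lysosomal values was not tested.

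**Figure D4:**
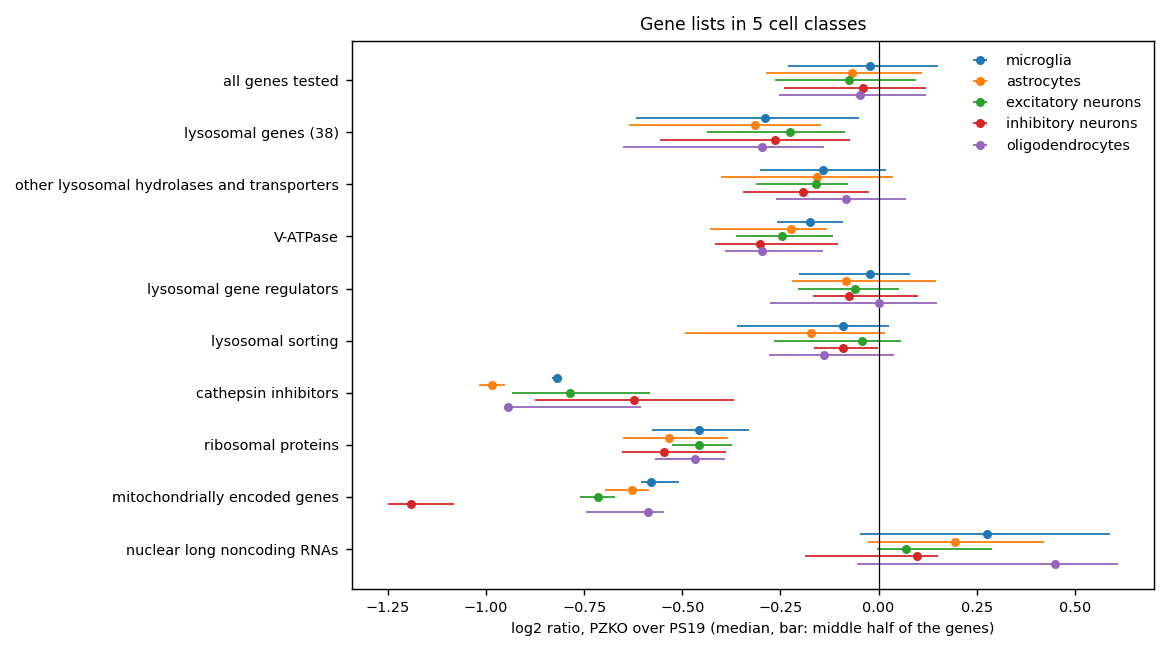
Median log2 ratio of PZKO over PS19 (horizontal axis) for all genes tested, the 38 lysosomal genes and 8 other gene lists, in 5 cell classes (colours). Bars run from the lower to the upper quartile of the genes of a list and are no error of the median. The lysosomal medians of −0.32 to −0.23 lie below those of all genes, and the ribosomal and mitochondrial medians lie lower still. The medians of nuclear long noncoding RNAs lie above 0, with lower quartiles below 0 in each class.

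The ratio also differed with the span of a gene from its first to its last annotated base. In microglia, all genes under 20 kb had a median log2 ratio of −0.16 with 10.8% at least 1.5-fold lower, genes of 20 kb to 100 kb a median of −0.00089 with 2.53%, and longer genes a median of 0.14 with 1.81%. The lysosomal genes had medians of −0.46 over 20 genes under 20 kb, with 9 lower by 1.5-fold or more, and −0.27 over 16 genes of 20 kb to 100 kb, with 1 lower. In oligodendrocytes these medians were −0.38 over 21 genes and −0.24 over 16 genes, beside −0.20 and −0.01 for all genes. The lysosomal median thus lay below that of all genes in both of these span classes. *Cd68* spans 1.94 kb, *Cd63* 11.8 kb, *Ctsd* 12.1 kb and *Lamp1* 16.2 kb, whereas *Lgmn* spans 45.7 kb, *Glb1* 73.8 kb and *Arsb*, the only 1 of the 38 over 100 kb, 171 kb. The part of gene span in the differences was not tested.

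**Figure D5:**
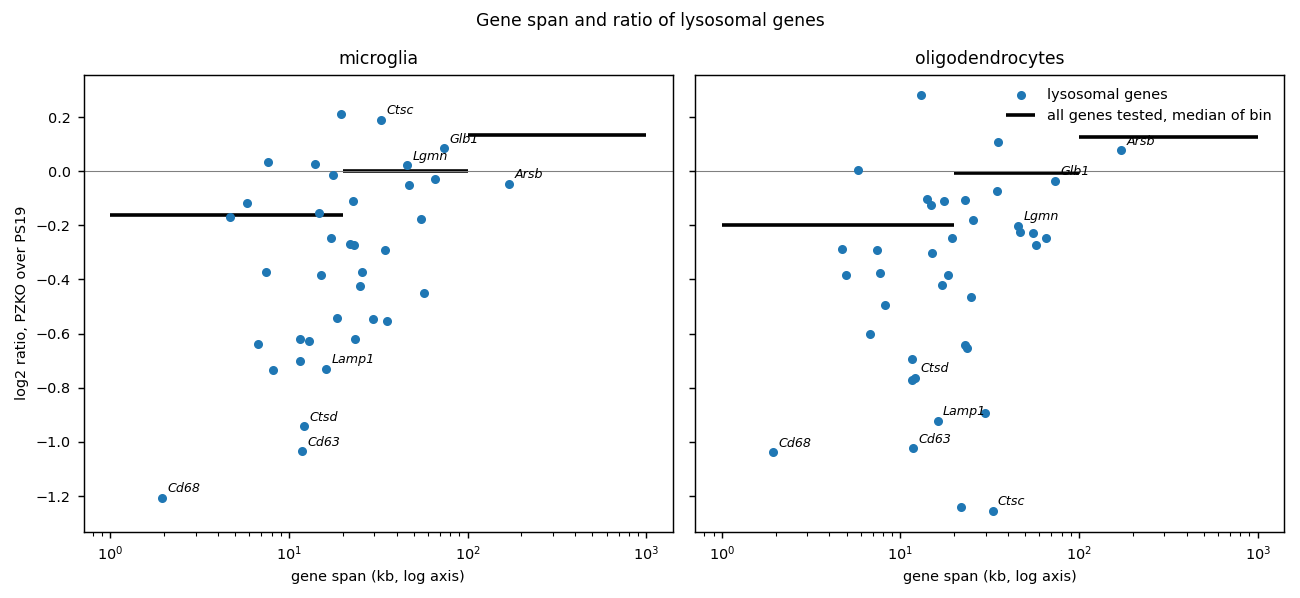
Log2 ratio of PZKO over PS19 of lysosomal genes (points) against gene span in kb (log axis), in microglia and in oligodendrocytes. Black lines are medians of all genes tested under 20 kb, from 20 kb to 100 kb and above 100 kb, drawn between 1 kb and 1000 kb. Most lysosomal genes under 20 kb, *Cd68*, *Cd63*, *Ctsd* and *Lamp1* among them, lie below the line of their span.

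Genes with and without the CLEAR-type letters in their promoter were set beside each other. The 12 genes with CACGTG had the higher median in each of the 5 classes, and in microglia it was −0.16 over 11 genes with the letters and −0.37 over 22 without, while in oligodendrocytes the medians were −0.29 and −0.30. For GTCACGTG the medians in microglia were −0.39 over 8 genes with it and −0.37 over 25 without, and in excitatory neurons −0.08 over 9 and −0.26 over 25. The 4 genes with TCACGTGA had a median of −0.68 in microglia, against −0.27 over 29 genes without it. The order of the medians in microglia thus differed between the forms of the motif.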

How the data were processed

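Hippocampal nuclei of PS19 and PZKO mice were profiled by snRNA-seq with 10x Genomics 3′ chemistry, 1 library per genotype. The authors deposited UMI counts per gene and nucleus as whole numbers without normalization. The submitters' processing notes name Cell Ranger 7.0.1, Seurat and mm10, and the matrix headers name Cell Ranger 8.0.1.

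Nuclei with at least 600 UMIs, 300 genes and at most 5% mitochondrial UMIs were kept, and the highest Scrublet scores (0.8% per 1000 nuclei) were removed in scanpy 1.11.5. From 2000 variable genes, without lysosomal genes, the other gene lists, mitochondrial and sex-linked genes and *Zbp1*, 30 principal components and 20 neighbours gave Leiden clusters (leidenalg 0.10.2, resolution 1). Clusters were named from marker genes, by thresholds set after the clusters had been seen. UMIs were summed per class and library. Genes with at least 50 UMIs in a class were compared, and 1.5-fold is a limit of size, not a test. Log2 ratios have exact conditional binomial (Clopper-Pearson) 95% intervals and levels exact Poisson intervals. The intervals of the ratios and the 1.5-fold limit were checked on counts simulated with counting error only. That check did not cover clustering, doublets, free RNA or differences between animals. No p-value was computed, since nuclei are not replicates.

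The 38 genes and the other lists were chosen with earlier results of these data known. By a fixed rule, the 5 lowest and 3 highest genes per class, ranked by the interval end nearest 0, are given with values, together with *Zbp1*, the 5 genes most like *Ctsd* and examples of each role. In other lists the 2 lowest and 2 highest per class could be named. Kinase genes whose symbols begin with Rps6k were dropped from the ribosomal list after it had been seen. Gene spans came from GENCODE M21 on mm10, with positions for 32158 of the 32285 genes. Alternatives included TMM scaling (edgeR 4.0.16) and size factors of DESeq2 (1.42.0), and the closing section gives those that changed a value.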

Additional observations from a re-analysis of the deposited data

How the results depend on the processing

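The lysosomal median stayed below 0 in each of the 5 classes under every alternative run, with ranges of −0.34 to −0.25 in microglia, −0.33 to −0.25 in astrocytes, −0.25 to −0.15 in excitatory neurons, −0.32 to −0.15 in inhibitory neurons and −0.38 to −0.20 in oligodendrocytes. The count of genes at least 1.5-fold lower moved by over 1.5 times under 3 of them. With the stricter filter it was 4 in microglia and 6 in astrocytes. With the profile of all nuclei subtracted as free RNA it was 3 in excitatory and 5 in inhibitory neurons. With the profile of the nuclei with few UMIs subtracted instead, it was 2 in excitatory neurons, 4 in inhibitory neurons and 7 in oligodendrocytes, and the log2 ratio of *Ctsd* in oligodendrocytes reversed to 1.06. Fewer genes were compared in these classes after that subtraction, and the value of *Ctsd* rests on the UMIs it left. The same subtraction left no PS19 UMIs of *Ctss* in oligodendrocytes, nor of the genes called lower in excitatory neurons. Those genes thus had no finite ratio after it. The cause of the other moves was not tested. Of the other values of single genes recomputed, 499 moved by less than their counting error and 27 by more. The number of genes highest in microglia in both libraries was 29, and 28 at a Leiden resolution of 0.5. The 3 alternatives added after the data had been seen were the profile of nuclei with few UMIs, equal weights of oligodendrocyte clusters and the removal of nuclei with shared barcodes. No paired analysis was possible because each genotype had 1 library, and for the same reason no library could be left out and differences between animals cannot be told apart from differences between genotypes. Genes under 50 UMIs in a class, *Arsa* in microglia and *Cd68* in inhibitory neurons, were not compared there.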
